A study of Homo sapiens with 4 samples.

Results

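Chemokines are small secreted proteins that direct the movement of leukocytes. They are grouped into CXC, CC, XC and CX3C families by the spacing of their first cysteines, and they act on receptors that signal through heterotrimeric G proteins of the Gi class, whose beta and gamma subunits drive phosphoinositide 3-kinase and Rac. Atypical receptors bind chemokines without this G protein signal and remove them. In myeloid cells, CXC chemokines such as CXCL8 recruit neutrophils, and CC chemokines recruit monocytes, eosinophils and lymphocytes.

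To investigate these genes after loss of LDB1, an adaptor protein that joins LIM-only and GATA transcription factors, the genes of the RNA-seq table whose names began with CXCL, CCL, CX3CL, XCL, CXCR, CCR, CX3CR or ACKR and a number were taken. They numbered 31 of the 28412 genes with a value: 19 ligand genes, 9 receptor genes, 2 atypical receptor genes and 1 receptor pseudogene. The rule reads the gene names and no measured value, but the group itself was picked with earlier results of these data known. The human leukemia line that the labels call NB4, a promyelocytic line, was transduced with a lentiviral control vector (sh-NC, 2 libraries) or with a vector that expressed an shRNA against LDB1 (sh-LDB1, 2 libraries). The cells of both groups were selected with puromycin, per the study's methods, so the control cells carried the vector and the selection too. The study designed 3 shRNAs against LDB1, and which one these libraries hold is not given in the sources used here. Nothing in the labels says that the 2 libraries of a group came from separate cultures, so the p-values measure the spread between these libraries, which may be technical.

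Levels are FPKM (fragments per kilobase of gene, scaled by the authors to library depth). The libraries held 15092850 to 17538684 reads, as recovered from the FPKM steps. LDB1 itself was at 135.1 and 120.1 FPKM (sh-NC) against 10.2 and 9.47 FPKM (sh-LDB1), which left 7.73% of the control level. The label was checked against lineage markers in each library. Of 10 promyelocyte and granulocyte markers, 8 had a value, with a summed level of 11.7 to 12.7 FPKM in sh-NC and 42.8 to 46.3 FPKM in sh-LDB1. Of these 8, 5 were at 1 FPKM or more in both sh-NC libraries and 6 in both sh-LDB1 libraries. LYZ was the highest, at 5.85 and 5.61 FPKM in sh-NC and 19.3 and 19.1 FPKM in sh-LDB1. ELANE, a promyelocyte protease, was the lowest, at 0.182 FPKM in sh-LDB1 replicate 1 and at 0 elsewhere. Both sh-LDB1 libraries lay above both sh-NC libraries for 6 of the 8 and below both for 1, beside 35.7% and 30% of all genes. The lower one was CEBPE, at 1.55 and 1.27 FPKM in sh-NC and 0.924 and 0.340 FPKM in sh-LDB1. The 12 erythroid markers summed to 3973 to 4140 FPKM in sh-NC and 352 to 388 FPKM in sh-LDB1, led by the globin gene HBZ in the sh-NC libraries. The levels in all 4 libraries thus go against the promyelocytic label, and the groups are called here by their vectors.

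Most chemokine and receptor genes were at or near 0 in the control cells, and a few reached 1 FPKM or more in sh-LDB1. At 1 FPKM or more, there was 1 member in sh-NC replicate 1 and there were 2 in sh-NC replicate 2, against 8 in each sh-LDB1 library. This contrast depends on the threshold: at 0.5 FPKM or more the counts were 6 and 5 in sh-NC against 8 and 9 in sh-LDB1. Over the whole table, 45.4% and 45.6% of genes reached 1 FPKM without the knockdown, and 47.1% and 47.3% with it. The 8 members of the sh-LDB1 libraries were the same in both: the ligands CXCL8, CXCL2, CXCL3, CXCL16, CCL24 and XCL1, and the receptors CCR7 and CCR10. CCR10 was the single member at 1 FPKM or more in all 4 libraries, and CXCL3 was the second one in sh-NC replicate 2. The remaining 23 members stayed below 1 FPKM in every library. In bulk RNA, fewer expressing cells and less RNA per cell cannot be told apart.

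The summed level of the 31 members was 7.69 and 8.21 FPKM in the control libraries, against 32.9 and 32.2 FPKM after knockdown. CXCL8 made up 4.94% and 5.09% of that sum without the knockdown, and 42.7% and 44.7% with it. Without CXCL8 the sum was 7.31 and 7.79 FPKM in sh-NC, against 18.8 and 17.8 FPKM in sh-LDB1. Both sh-LDB1 libraries therefore lay above both sh-NC libraries with and without this gene. The members together took 264 and 266 reads in the control libraries against 1101 and 1052 in the knockdown libraries, still a small part of each library.

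**Figure D1:**
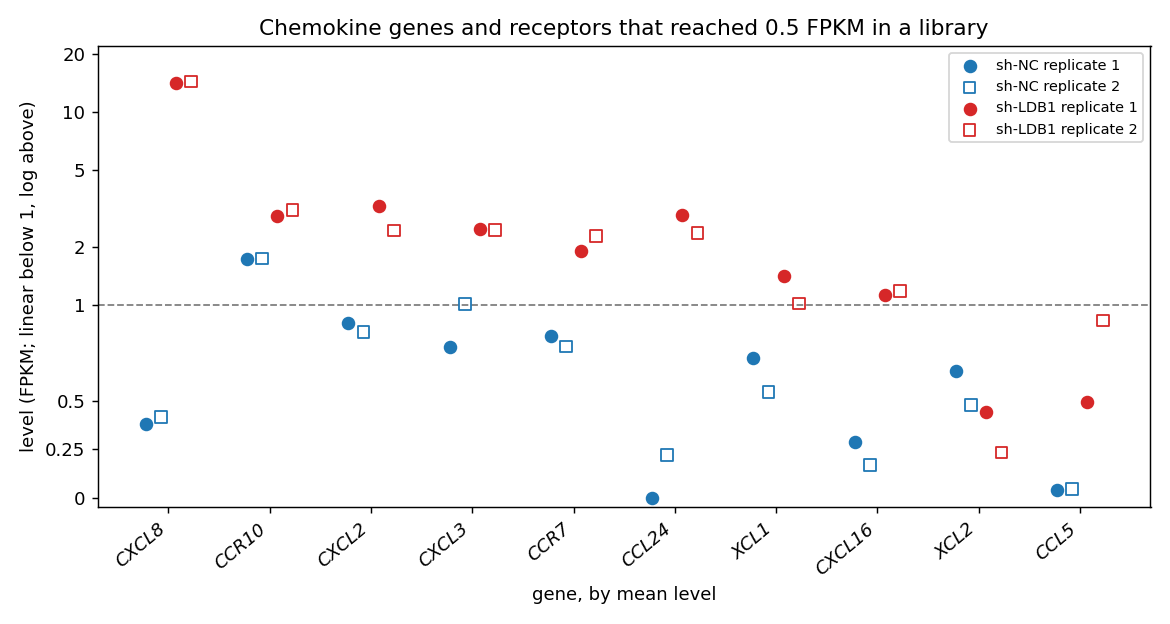
Level in FPKM (vertical axis, linear below 1 and logarithmic above) of the 10 members that reached 0.5 FPKM in at least 1 library, with 1 point per library, blue for sh-NC and red for sh-LDB1. Both red points lie above both blue points for every gene shown but XCL2, where both lie below, and the dashed line marks 1 FPKM. Over the whole table, both sh-LDB1 libraries lay above both sh-NC libraries for 35.7% of genes and below both for 30%. CXCL8, CCL24, CXCL16 and CCL5 reached 0.5 FPKM only in sh-LDB1, so their direction says little beyond this selection.

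The 2 groups were compared with limma on log2(FPKM + 1) over the 13300 genes that averaged 1 FPKM or more across libraries, with Benjamini-Hochberg adjustment over all of them. A gene was called when its adjusted p was below 0.05 and its fold change was above 2 or below 0.5 on this scale, which understates the change of low genes. Of the 31 members, 6 passed the filter and 25 did not. Of these 6, 3 were called higher in sh-LDB1 (CXCL8, CCL24 and CXCL2) and 0 lower, beside 9.5% of all tested genes called higher and 10.3% called lower. At an adjusted p below 0.05 with no fold threshold, 6 were higher and 0 lower, beside 29.9% and 37.4% of all tested genes. Of the 6, 5 passed the filter through their sh-LDB1 level, with a sh-NC mean below 1 FPKM, so these counts say little beyond the filter, and CCR10 is the exception.

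Among the ligands, CXCL8 showed the largest difference of the 6 tested members on this scale. CXCL8, the neutrophil chemoattractant also called interleukin-8, lies on the plus strand of chromosome 4 (chr4:73740519-73743716, GRCh38; ENSG00000169429). The control libraries gave 0.380 and 0.417 FPKM, and the knockdown libraries 14.1 and 14.4 FPKM. The replicates of each group lay close together and the groups were far apart. The mean was 0.399 ± 0.0262 FPKM (SD, n = 2) before and rose with the knockdown to 14.2 ± 0.235 FPKM (SD, n = 2), a 35.6-fold difference of the means. On the log2(FPKM + 1) scale the difference was 3.44 (SE 0.0687, limma adjusted p = 6.77e-05). In terms of reads, 28 in sh-NC stood against 1007 in sh-LDB1, and the ratio scaled by library had a 95% exact binomial interval of 24.6 to 54.0. Such intervals cover counting error only. By level, CXCL8 moved from rank 16391 and 16013 among all genes in the sh-NC libraries to rank 3385 and 3308 in the sh-LDB1 libraries.

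CXCL2 and CXCL3, neighbouring paralogs that act on the same neutrophil receptor as CXCL8, were also higher in sh-LDB1. CXCL2 (chr4:74097040-74099196, minus strand; ENSG00000081041) was at 0.906 and 0.859 FPKM (sh-NC) against 3.25 and 2.42 FPKM (sh-LDB1). The sh-LDB1 replicates differed from each other by more than the sh-NC replicates did, and the groups did not overlap. The difference was 1.02 on the log2(FPKM + 1) scale (SE 0.146, limma adjusted p = 0.00375), just past the threshold of 2-fold. Without sh-NC replicate 2 it was 1.00, at the threshold but below it, and without sh-LDB1 replicate 1 it was 0.86, so the 2-fold call for CXCL2 rests on those libraries, while the adjusted p stayed below 0.05, at 0.0224 and 0.0193.

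CXCL3 (chr4:74036589-74038807, minus strand; ENSG00000163734) was at 0.780 and 1.01 FPKM (sh-NC) against 2.48 and 2.44 FPKM (sh-LDB1). Its difference of 0.87 on the log2(FPKM + 1) scale (SE 0.121, limma adjusted p = 0.00338) lay just short of 2-fold. The fold of the FPKM means was 2.75 for CXCL3 and 3.21 for CXCL2, so the pseudocount placed the pair on either side of the threshold. With a pseudocount of 0.1 the log2 difference of CXCL3 was 1.37 (adjusted p = 0.00424).

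CXCL8, CXCL1, CXCL3 and CXCL2 lie in that order within 359 kb of chromosome 4. The fourth gene, CXCL1, a paralog of CXCL2 and CXCL3 with the same receptor, stayed low. It was at 0.0954 and 0.0523 FPKM (sh-NC) against 0.241 and 0.153 FPKM (sh-LDB1), from 3 and 8 reads in the groups, and its ratio of 2.65 had an interval of 0.635 to 15.5. The cluster was thus unequal in level, with CXCL8 at one end and CXCL2 and CXCL3 at the other, and CXCL1, whose start is 129 kb from that of CXCL8, near 0 in both groups. Between CXCL1 and CXCL3, the platelet chemokine genes PF4 and PPBP, which the name rule does not take, stayed at or below 0.349 FPKM in every library. Further along the same chromosome, 1922 kb beyond CXCL2, CXCL10 is described with the low genes. Reads of this family could be told apart over most of each transcript: of all 75-base windows of the reference transcript, 97.5% for CXCL2, 97.7% for CXCL3 and 99.7% for CXCL1 occurred in no other gene.

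**Figure D2:**
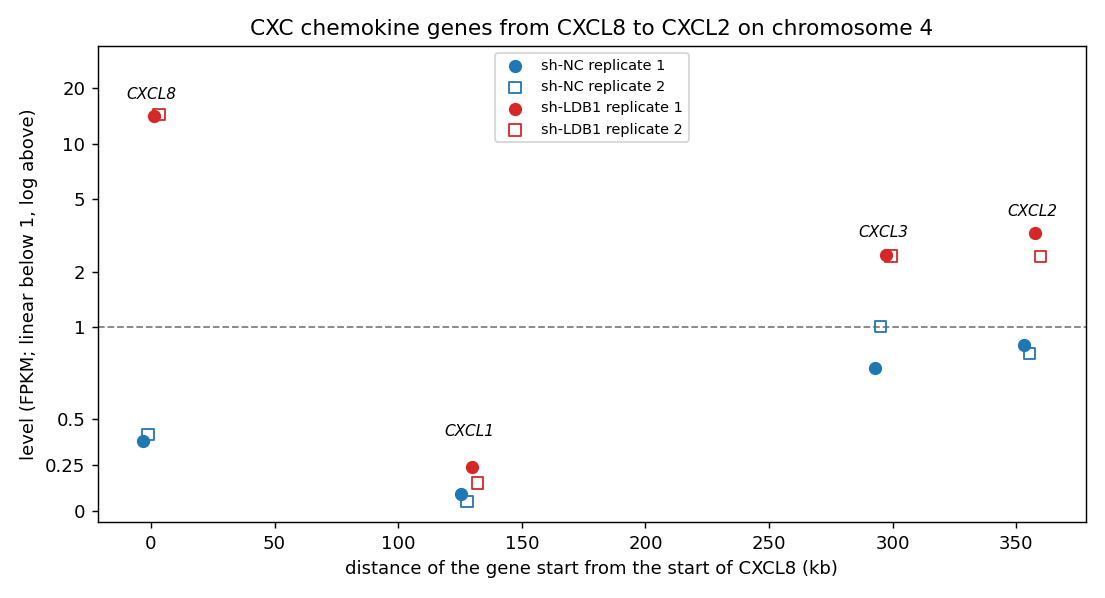
Level in FPKM (vertical axis, linear below 1 and logarithmic above) of 4 CXC chemokine genes against the distance of the gene start from that of CXCL8 in kb, with 1 point per library (blue sh-NC, red sh-LDB1; points of 1 gene are shifted sideways by a few kb to be seen). CXCL8 is at 14.1 and 14.4 FPKM in sh-LDB1, CXCL1 stays below 0.25 FPKM in all 4 libraries, and CXCL3 and CXCL2 lie between 2.42 and 3.25 FPKM in sh-LDB1.

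The promoters of the called members, and that of CXCL3 as the paralog of CXCL2, are shown because the CXC genes of the cluster moved in the same direction. CXCL3 and the motifs were chosen after the values and the letters had been seen. Each run is the 250 bases before the RefSeq start (GRCh38.p14), 5′ to 3′ on the strand of the gene. The capitals mark 3 motifs searched on both strands, which are GGAATTTCC (a kappaB-type sequence), TGANTCA (the AP-1 type) and GATAA (the core of GATA sites).
CXCL8, chr4:73740319-73740568, plus strand: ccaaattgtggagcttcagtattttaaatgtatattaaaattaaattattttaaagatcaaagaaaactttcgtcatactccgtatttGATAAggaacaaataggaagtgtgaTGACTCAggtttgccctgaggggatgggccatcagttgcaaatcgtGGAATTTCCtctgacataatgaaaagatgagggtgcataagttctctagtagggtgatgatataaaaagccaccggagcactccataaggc
CXCL2, chr4:74099196-74099445, minus strand: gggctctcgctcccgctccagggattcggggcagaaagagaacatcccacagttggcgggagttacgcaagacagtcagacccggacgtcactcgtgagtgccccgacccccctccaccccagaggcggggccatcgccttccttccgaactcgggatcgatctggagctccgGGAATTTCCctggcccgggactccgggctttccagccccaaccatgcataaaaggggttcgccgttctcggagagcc
CXCL3, chr4:74038690-74038939, minus strand: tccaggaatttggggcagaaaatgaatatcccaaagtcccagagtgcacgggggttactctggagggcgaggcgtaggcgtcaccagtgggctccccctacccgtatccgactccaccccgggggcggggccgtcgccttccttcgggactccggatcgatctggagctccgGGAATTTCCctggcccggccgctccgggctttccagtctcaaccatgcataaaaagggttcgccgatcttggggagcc
CCL24, chr7:75813807-75814056, minus strand: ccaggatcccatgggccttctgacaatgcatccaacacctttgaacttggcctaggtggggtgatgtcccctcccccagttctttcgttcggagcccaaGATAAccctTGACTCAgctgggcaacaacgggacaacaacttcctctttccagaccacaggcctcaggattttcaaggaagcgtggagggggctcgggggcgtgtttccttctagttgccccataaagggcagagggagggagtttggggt

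GGAATTTCC stood 91 bases before the start in CXCL8, 77 in CXCL2 and 78 in CXCL3, and in 0.413% of the 35116 RefSeq promoter windows of this length. TGACTCA stood in the windows of CXCL8 and CCL24, at 137 and 142 bases before the start, and TGANTCA is found in 6.57% of all windows. GATAA, at 162 bases in CXCL8 and 151 in CCL24, is found in 20.4% of all windows. The windows of CXCL2 and CXCL3 were identical at 73.3% of the columns of their alignment, with an unbroken identical run of 37 bases that holds GGAATTTCC. In contrast, the CXCL8 window was identical to those of CXCL2 and CXCL3 at 40.5% and 45.0% of columns. A match is a description of the letters and not evidence of a bound factor. RefSeq promoter windows were matched for 20 of the 31 members. Motifs are given only for the windows printed above, so they are not compared with members that stayed low.

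CCL24, or eotaxin-2, is an eosinophil chemoattractant that acts on CCR3, and it came next to CXCL8 on this scale among the tested members. CCL24 (chr7:75810825-75823356, minus strand; ENSG00000106178) was at 0 and 0.220 FPKM (sh-NC) against 2.93 and 2.36 FPKM (sh-LDB1). All of its control signal was 4 reads in 1 library, and the sh-LDB1 libraries held 58 and 44 reads. The difference was 1.72 on the log2(FPKM + 1) scale (SE 0.182, limma adjusted p = 0.00144). The ratio of reads was 25.3, with a counting interval of 9.59 to 94.7, so the size of the fold is poorly fixed. CCL24 had the lowest mean of the tested members, 1.38 FPKM over the 4 libraries, and XCL1, at 0.925 FPKM, was the member just below the filter. The next gene of its cluster, CCL26 (eotaxin-3), which lies 20.9 kb away, was no higher in values after knockdown: it held 1 and 5 reads in sh-NC and 1 and 0 reads in sh-LDB1, a ratio of 0.165 with an interval of 0.0036 to 1.36. CCR3, the receptor of both, stayed at or below 0.0190 FPKM in every library.

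Both receptor genes at 1 FPKM or more in sh-LDB1 rose, each by less than 2-fold on the log2(FPKM + 1) scale. CCR7, the lymph node homing receptor for CCL19 and CCL21 (chr17:40553769-40565472, minus strand; ENSG00000126353), was at 0.838 and 0.784 FPKM (sh-NC) against 1.89 and 2.27 FPKM (sh-LDB1). Its difference was 0.76 on that scale (SE 0.129, limma adjusted p = 0.00637), and the fold of the FPKM means was 2.56. CCR7 is the 1 member that also stands on a list by the study of LDB1-bound, knockdown-responsive genes, which was chosen on these libraries and is therefore no independent evidence of direction. Its ligand gene CCL19 had at most 2 reads in a library.

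CCR10, the receptor for the skin and mucosal chemokines CCL27 and CCL28, was the most abundant member in the control cells (chr17:42678889-42683917, minus strand; ENSG00000184451). It was at 1.72 and 1.73 FPKM (sh-NC) against 2.88 and 3.10 FPKM (sh-LDB1), from 140 and 244 reads per group. The control replicates were nearly equal and the groups did not overlap. The difference was 0.55 on the log2(FPKM + 1) scale (SE 0.0887, limma adjusted p = 0.0055), and the ratio of reads was 1.73 with an interval of 1.40 to 2.15. It is the tested member whose passing of the filter did not depend on the sh-LDB1 libraries. CCL28, its ligand gene, held 0 reads in both sh-NC libraries and 7 and 1 in the sh-LDB1 libraries.

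**Figure D3:**
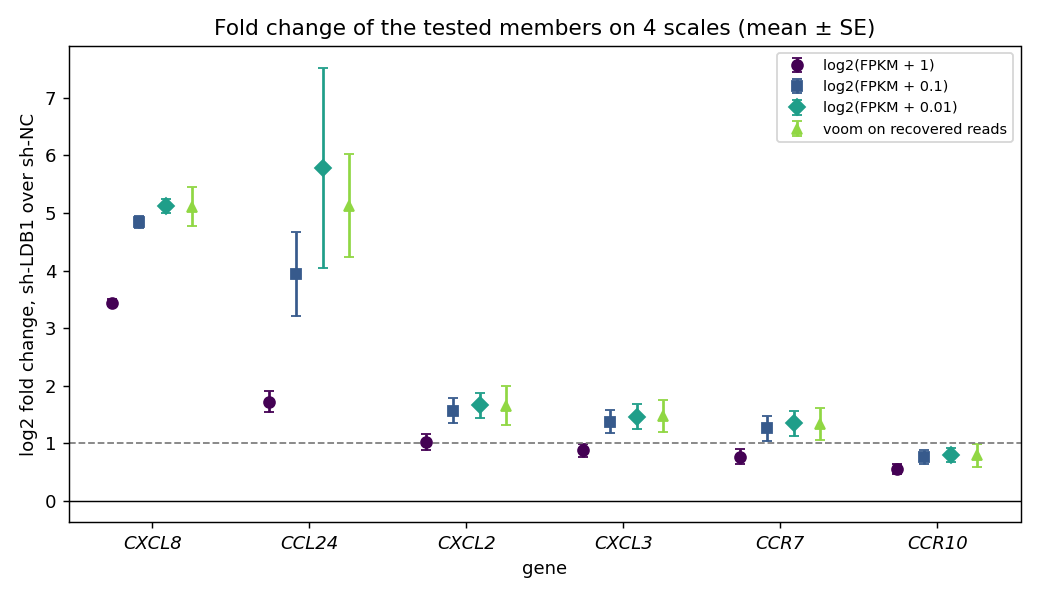
Log2 fold change of sh-LDB1 over sh-NC with its standard error (vertical axis) for the 6 tested members on 4 scales, which are log2(FPKM + 1), log2(FPKM + 0.1), log2(FPKM + 0.01) and voom on the recovered reads. All 24 points lie above 0, CXCL3 and CCR7 lie below the dashed 2-fold line on the first scale and above it on the other 3, and CCR10 lies below it on all 4.

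CXCL2, CXCL3, CCR7 and CCR10 kept this order of fold on all 4 scales, while CXCL8 and CCL24 changed places and sizes with the scale. For CXCL8 the log2 fold change ranged from 3.42 to 5.12 over all alternatives, and for CCL24, with its 4 control reads, from 1.57 to 5.78. For CCR10 it ranged from 0.51 to 0.79. With all libraries kept, the limma adjusted p of the 6 genes stayed below 0.05 outside the direct test against a 2-fold threshold. These fits share the same libraries and include the main fit without its fold threshold, so they are not independent checks. In that direct test (limma treat), CXCL8 passed and CCL24 did not, with an adjusted p of 0.0735.

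A pair of members reached 1 FPKM in sh-LDB1 but had a mean below the filter, so they have no test in the comparison above. CXCL16, a membrane-bound chemokine that also takes up oxidised lipoprotein (chr17:4733533-4739928, minus strand; ENSG00000161921), was at 0.288 and 0.170 FPKM (sh-NC) against 1.12 and 1.18 FPKM (sh-LDB1), or 20 against 100 reads. The groups did not overlap, and the ratio of reads was 4.96 with an interval of 3.05 to 8.47. XCL1, or lymphotactin (chr1:168576605-168582069, plus strand; ENSG00000143184), was at 0.723 and 0.546 FPKM (sh-NC) against 1.42 and 1.02 FPKM (sh-LDB1). Its ratio was 1.91 with an interval of 1.18 to 3.17. Its neighbour and near copy XCL2 went the other way in values, at 0.656 and 0.480 FPKM (sh-NC) against 0.442 and 0.234 FPKM (sh-LDB1), from 10 and 6 reads per group. The levels of this pair are uncertain, since 10.4% of the windows of XCL1 and 24.6% of those of XCL2 occurred in the other gene.

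With voom on the recovered reads over the 15812 genes with a mean of at least 10 reads, an alternative chosen after the data were seen, 9 members could be tested. Of these, 6 were called higher and 0 lower, beside 17.3% and 14.2% of all genes in that fit. CXCL16 was the addition, with a log2 fold change of 2.30 (SE 0.422, limma adjusted p = 0.00018). XCL1 was at 0.91 (SE 0.424, adjusted p = 0.0702) and the atypical receptor ACKR2 at 0.30 (SE 0.400, adjusted p = 0.516).

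A receptor and its ligand could also differ in opposite directions. CXCR6, the receptor for CXCL16, was at 0.295 and 0.234 FPKM (sh-NC) against 0.0166 and 0.0175 FPKM (sh-LDB1), or 18 and 13 reads against 1 and 1. It was the one member of the 17 with 10 or more reads whose counting interval lay below 1, with a level 15.6-fold lower in sh-LDB1 and an interval of 3.97 to 135. CXCR6 and CXCL16 thus differed in opposite directions, both from low levels. With no filter on low genes, limma over 28412 genes gave CXCR6 a log2(FPKM + 1) difference of -0.31 (SE 0.0483, adjusted p = 0.0173).

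In the same fit with no filter, 9 members were higher and 1 lower at an adjusted p below 0.05, beside 17.3% and 17% of all genes, and the 3 added higher ones were CXCL16, CCL5 and CXCL10. CCL5, or RANTES, a T cell and monocyte chemoattractant, was at 0.0409 and 0.0448 FPKM in sh-NC, which is 1 read in each, and at 0.495 and 0.918 FPKM in sh-LDB1, which is 12 and 21 reads. Its ratio of 16.4 had an interval of 4.19 to 141, and its adjusted p in that fit was 0.0378. CXCL10, an interferon-induced ligand of CXCR3, was at 0 in both sh-NC libraries and at 0.372 and 0.281 FPKM in sh-LDB1, from 7 and 5 reads. Set against a floor of 3 reads over the control group, it was 3.97-fold higher. The 95% counting interval of its ratio had a lower end of 2.76, so 3.97 is not a lower bound. Its limma adjusted p in that fit was 0.0135. Its receptor gene CXCR3 held 0 reads in sh-NC and 2 and 6 reads in sh-LDB1.

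**Figure D4:**
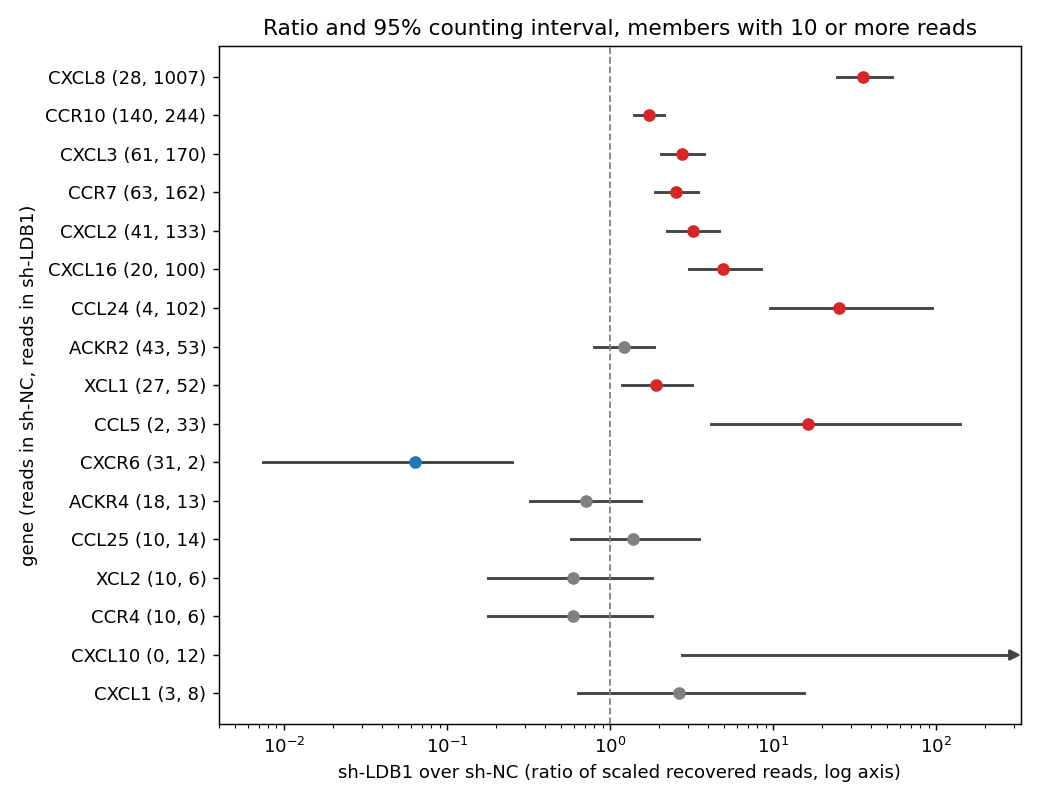
Ratio of sh-LDB1 to sh-NC in scaled recovered reads (horizontal logarithmic axis) with its 95% exact counting interval for the 17 members with 10 or more reads over the 4 libraries, the reads of each group in brackets. The interval lies above 1 for 10 genes (CXCL10 has no upper end, drawn as an arrow), below 1 for CXCR6, and spans 1 for 6, and it covers counting error only. The matching share over all genes was not counted, so these numbers describe the members and do not set them apart from other genes.

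The other 14 members had fewer than 10 reads over the 4 libraries, and none of their libraries exceeded 0.480 FPKM. They included the neutrophil receptor CXCR2, which binds CXCL8, CXCL2 and CXCL3 and held 0 reads in either sh-NC library and 3 and 1 after knockdown, and the monocyte receptor CCR1, with 0 in sh-NC and 1 in each sh-LDB1 library. The ratio of reads had a counting interval above 1 for CXCR3 and CCL28, each with 0 reads in sh-NC and 8 in sh-LDB1 (lower end 1.69). That interval covers counting error only. In the fit with no filter neither gene passed, with a limma adjusted p of 0.156 for CXCR3 and 0.337 for CCL28. Differences among the other 12 were not detectable at this depth. Counted over all 31 members, both sh-LDB1 libraries lay above both sh-NC libraries for 17 and below both for 3, beside 35.7% and 30% of all genes of the table, and 11 overlapped. The 3 lower members were CXCR6, XCL2 and CXCL17, the last from 1 read in each sh-NC library. The atypical receptors stayed low and overlapped between groups: ACKR2 was at 0.193 and 0.323 FPKM in sh-NC against 0.252 and 0.375 FPKM in sh-LDB1, and ACKR4 at 0.190 and 0.328 FPKM against 0.192 and 0.174 FPKM.

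Many genes of the machinery that chemokine receptors use were far more abundant than the receptors, and the tested ones moved in both directions. Of 57 listed signalling genes, 53 had a value and 37 passed the filter. The other 16 with a value averaged below 1 FPKM, among them GNAI1, DOCK2 and CDC42. At an adjusted p below 0.05, 19 of the 37 rose, 10 fell and 8 did not pass, beside 29.9% higher and 37.4% lower among all tested genes. At 2-fold, 2 of the 37 were called higher and 2 lower, beside 9.5% and 10.3% of all tested genes. Their median log2(FPKM + 1) difference was 0.27, beside -0.08 over all genes tested. GNAI2, a Gi alpha subunit through which leukocyte chemokine receptors signal, was at 5.40 and 5.74 FPKM (sh-NC) against 22.7 and 22.9 FPKM (sh-LDB1), a difference of 1.86 (SE 0.0529, limma adjusted p = 8.31e-05). RAC2, the haematopoietic Rac that drives actin polymerisation, was at 66.4 and 73.2 FPKM against 160.8 and 166.4 FPKM, a difference of 1.22 (SE 0.0618, limma adjusted p = 0.000202). GRK6, a kinase that phosphorylates and silences active receptors, fell from 33.6 and 32.5 FPKM to 14.9 and 15.2 FPKM, a difference of -1.09 (SE 0.0447, limma adjusted p = 0.000141). JAK2, a cytokine receptor kinase named after its values were seen, was the other gene called lower, at -1.01. With scaling by total recovered reads neither GRK6 nor JAK2 kept the 2-fold call, and without sh-NC replicate 1 or sh-LDB1 replicate 2 JAK2 lost it.

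**Figure D5:**
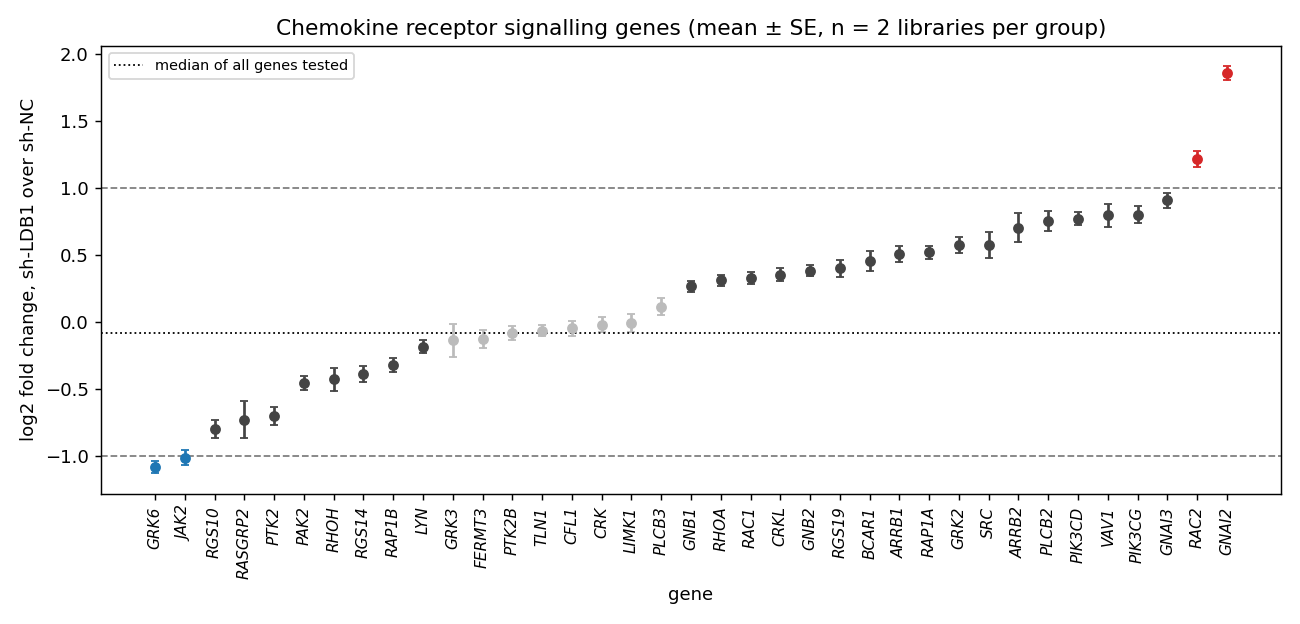
Log2(FPKM + 1) difference of sh-LDB1 minus sh-NC with its standard error (vertical axis) for the 37 tested genes of chemokine receptor signalling, red and blue for genes called higher and lower, dark grey for an adjusted p below 0.05 without 2-fold, light grey for the others. GNAI2 and RAC2 lie above the upper 2-fold line, GRK6 and JAK2 below the lower one, and 8 genes lie around the dotted median of all genes.

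Chemokine relatives that the name rule does not take gave 24 listed genes, of which 19 had a value and 6 passed the filter. One of them was called higher, CCRL2, a chemerin-presenting atypical receptor, named after its values were seen and likewise on that list of the study. CCRL2 was at 0.969 and 0.975 FPKM (sh-NC) against 5.89 and 5.12 FPKM (sh-LDB1), a difference of 1.72 (SE 0.0983, limma adjusted p = 0.000264). This is 1 of 6, beside 9.5% of all tested genes. In all, 4 of the 6 rose and 1 fell at an adjusted p below 0.05, beside 29.9% and 37.4% of all tested genes. Of those that rose, CCRL2 and CKLF passed the filter through their sh-LDB1 level, with sh-NC means of 0.972 and 0.842 FPKM. These counts therefore say little beyond the filter.

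Each marker list for other blood and stromal cells had a higher sum in both sh-LDB1 libraries, but not every gene was higher. Both sh-LDB1 libraries exceeded both sh-NC libraries for 3 T cell, 3 NK cell and 3 B cell genes. The same held for 2 monocyte genes, 4 fibroblast genes and 1 endothelial gene. TEK, another endothelial gene, was lower in both, beside 35.7% of all genes above and 30% below. The part of such cells in the chemokine differences was not tested. The list for monocytes and macrophages, cells known to express CXCL8 and CXCL16, had 3 of 5 genes with a value, all below 1 FPKM in every library, with sums of 0.272 to 0.433 FPKM in sh-NC and 0.688 to 0.872 FPKM in sh-LDB1. The T cell list, whose cells can express CCR7, CCL5 and XCL1, had 3 of 5 genes with a value and sums of 21.4 to 24.5 FPKM in sh-NC and 47.2 to 50.4 FPKM in sh-LDB1, most of it CD3D, while CD3E was at most 1.05 FPKM. The NK cell list had 5 of 5, with sums of 2.28 to 2.64 FPKM and 5.62 FPKM in both sh-LDB1 libraries. Most of the sum was PRF1 and NKG7, and NCAM1 and KLRD1 were at or near 0. The B cell list had 3 of 4, with sums of 0.748 to 1.25 FPKM and 1.49 to 2.15 FPKM. The fibroblast list had 4 of 5, with sums of 0.117 to 0.238 FPKM and 2.15 to 2.22 FPKM, and the endothelial list 2 of 4, with sums of 0.209 to 0.276 FPKM and 0.622 to 0.644 FPKM.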

How the data were processed

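Total RNA was made into libraries with a TruSeq kit, and the authors mapped the reads with HISAT2 (version 2.0.5, build hg38 per the submitters' processing notes) and deposited FPKM per gene and library. Neither the annotation nor the counter nor its strand setting is given in the sources used here. Coordinates come from GENCODE release 44 (GRCh38). The groups and replicate numbers follow the labels. Reads were recovered from the deposited FPKM steps, and 100% of genes came out whole within a tolerance of 0.002. The absolute read numbers rest on GENCODE lengths (within 10% of the fitted length for 86.0% of genes) and are estimates. The test was limma 3.58.1 in R 4.3.3, eBayes with trend on log2(FPKM + 1), with no replicate block, and Python 3.11.15, numpy 2.4.6, pandas 2.3.3 and scipy 1.17.1 were used. The steps were tested on simulated data. Exact binomial intervals (95%) used the reads of both libraries of a group. The members and lists were chosen with earlier results of these data known. Members that averaged 1 FPKM or more were named with a test, and those that reached 1 FPKM in a library with values. Of the signalling and related genes, those called and averaging 10 FPKM or more were named. The replicates correlated at r = 0.985 and 0.984 across genes, which are not independent replicates. Alternatives were another pseudocount, filter, scaling, model and replicate set.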

Additional observations from a re-analysis of the deposited data

How the results depend on the processing

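CXCL8 and CCL24 were called in each of the other settings, except that CCL24 missed the direct 2-fold test. All 90 alternative values of the 6 tested members kept their direction. On log2(FPKM + 1), a change of filter, variance trend, replicate block or threshold returns the same difference, so those values could not turn. Since 5 of the 6 passed the filter through their sh-LDB1 level, their kept direction says little beyond the filter. The number of members called higher was 3. It was 5 with a pseudocount of 0.1, of 0.01 and with voom, 6 with voom at a mean of at least 10 reads and with no fold threshold, and 1 with the direct 2-fold test. Leaving out each library gave 2 to 3. Signalling genes called higher numbered 4 with a pseudocount of 0.1, of 0.01 and with voom, 6 with voom at 10 reads, 19 with no fold threshold and 1 in the direct test. Those called lower numbered 0 with scaling by total reads and in the direct test, 4 with voom at 10 reads, 10 with no fold threshold and 1 to 2 with a library left out. Relatives called higher numbered 3 with a pseudocount of 0.1, of 0.01 and with voom, 2 with scaling by total reads, 7 with voom at 10 reads, 4 with no fold threshold and 1 to 2 with a library left out (2 without sh-NC replicate 2 or sh-LDB1 replicate 1, where CMTM6 was added). Relatives called lower numbered 1 with voom at 10 reads and 1 with no fold threshold. Over all genes, the 1264 called higher and 1371 called lower became 568 and 581 in the direct test, 2734 and 2244 with voom at 10 reads, and 3983 and 4978 with no fold threshold. They became 1697 and 1880 with a pseudocount of 0.1, 1731 and 1921 with 0.01, and 1752 and 1929 with voom, so calls rose over the whole table in these settings too. With scaling by total reads they were 1496 and 1103, so that 57.6% of the calls were higher against 48.0% as deposited. The cause of these differences between settings was not tested.

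Members at the level threshold numbered 6 and 5 in the sh-NC libraries against 8 and 9 in the sh-LDB1 libraries at 0.5 FPKM. At 2 FPKM they numbered 0 and 0 against 5 and 6, and at 10 or more reads 9 and 9 against 10 and 10. The contrast between the groups was thus smaller at 0.5 FPKM and at 10 reads than at 1 FPKM. Scaling by total reads shifted the median of all genes by 0.10 on the log2 scale. The replicate numbers did not pair the samples (correlation of same-numbered deviations 0.0196). With a replicate block the members called higher were 3 as before, and the genes called over the table were 1274 higher and 1386 lower. With 2 libraries per group and 22 of the 31 members under a mean of 10 reads, most of the low genes cannot be compared.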
